A study of Mus musculus with 2 samples.

Results

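Immediate-early gene-high (IEG-high) macrophages are the tumor macrophages in which 5 immediate-early genes, Fos, Fosb, Jun, Egr1 and Ier2, took the largest share of the RNA molecules counted. Cells of both libraries were pooled, and each was scored by the summed unique molecular identifiers (UMIs) of these genes divided by all of its UMIs. The top 5% of the 14351 cells kept gave 718 IEG-high cells, and the other 13633 are called remaining cells. The members were thus chosen by measured values of the 5 genes, so the levels of these genes describe the choice. Because other genes were read in the same cells, their differences are descriptions without a test.

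The study sorted mature tumor mononuclear phagocytes, defined as MerTk+ CD64+, from B16 melanoma tumors grown in C57Bl/6 mice and profiled them on a droplet-based 3′ platform. One library came from Fcmr+/+ mice and 1 from Fcmr-/- mice, which carry a germline deletion of the receptor for the Fc part of IgM. Both libraries share the tumor line, the heated enzymatic digestion of the tumor and the sort. The age of the mice and the number behind each library are not given in the sources used here. With 1 library per genotype, genotype and library cannot be told apart, and no p-value is given.

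Immediate-early genes are switched on within minutes of a signal and need no new protein for their transcription. Kinases of the MAP kinase cascade act on transcription factors already in place, such as SRF with its ELK partners and CREB. FOS and JUN proteins then pair as AP-1, while EGR1 binds its own sites, and phosphatases and RNA-binding proteins of the same early wave shut the response down. In macrophages the program follows growth factors, microbial products and adhesion, and it is also well known from tissue that was digested warm.

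The Fcmr+/+ file held 131062107 UMIs in 6392 cells, and the Fcmr-/- file 125802196 UMIs in 8017 cells. Of these 14409 cells, 58 were outside the limits on genes and mitochondrial UMIs. Of the 6352 Fcmr+/+ cells kept, 428 were IEG-high, which is 6.74% (95% interval 6.13 to 7.38). Of the 7999 Fcmr-/- cells kept, 290 were IEG-high, which is 3.63% (95% interval 3.23 to 4.06). The share was 1.86 times as high in the Fcmr+/+ library, and the intervals did not overlap. These intervals, Clopper-Pearson for shares of cells and Poisson for UMIs, cover counting error only and not the spread between mice. The 3 cells just inside the threshold scored 5838.4, 5829.0 and 5827.8 UMIs per 1000000 UMIs of the cell, and the 3 just outside scored 5818.7, 5816.3 and 5813.2. The threshold therefore did not fall in a gap of the score. The libraries shared 73 cell barcodes, which label 146 of the cells kept and 7 IEG-high cells. Without them the IEG-high shares were 6.75% and 3.62%.

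**Figure D1:**
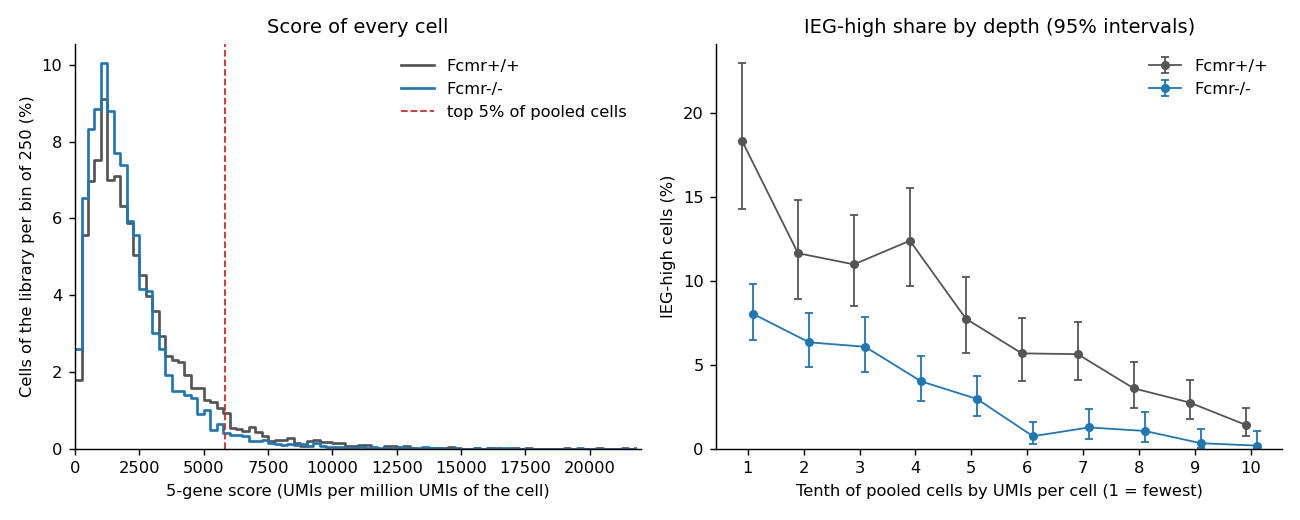
Left, the 5-gene score of every cell kept (UMIs per 1000000 UMIs of the cell, in bins of 250) as a percentage of the cells of each library, with the threshold as a dashed line; the tail to the right of it is heavier in the Fcmr+/+ library. Right, the IEG-high share in 10 equal depth bins of pooled cells ordered by UMIs per cell, with exact 95% intervals, which is higher in the Fcmr+/+ library in all 10 bins and low in the deepest cells.

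IEG-high cells held fewer UMIs than remaining cells. The median was 11408 UMIs against 18479 in the Fcmr+/+ library and 8611 against 13173 in the Fcmr-/- library. The median number of genes was 2810 against 3809 and 2552 against 3197, respectively. After each cell was thinned to 5000 UMIs, which left out no cell, the medians were 1775 against 1830 genes and 1820 against 1828 genes, so most of the gap in genes went with depth. The mitochondrial share of UMIs had a median of 4.78% in IEG-high against 4.69% in remaining cells of the Fcmr+/+ library, and 4.33% against 4.06% in the Fcmr-/- library. When pooled cells were divided into 10 equal depth bins by UMIs, the shallowest bin (5156 to 7181 UMIs) held 18.3% IEG-high cells in the Fcmr+/+ library and 8.03% in the Fcmr-/- library. The deepest bin (31745 to 79986 UMIs) held 1.43% and 0.190%. Thinning did not remove this slope. The share of cells with at least 30 UMIs of the 5 genes among 5000 was 17.7% in the shallowest bin and 1.65% in the deepest in the Fcmr+/+ library, and 8.12% and 0.570% in the Fcmr-/- library. Over all depths this thinned share of Fcmr+/+ cells was 6.79% (95% interval 6.18 to 7.43). It was 3.91% (95% interval 3.5 to 4.36) for the Fcmr-/- library. Because shallow cells are frequent among IEG-high cells, results are also given against depth-matched remaining cells, which were weighted to the UMIs per cell of the IEG-high cells in the same library.

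The 5 genes took 0.798% of the UMIs of Fcmr+/+ IEG-high cells against 0.212% in remaining cells, and 0.788% against 0.186% in the Fcmr-/- library. Fos, which encodes the AP-1 subunit that needs a partner to bind DNA, stood at 4567 UMIs per 1000000 UMIs of the group (counts per 1000000, CPM) in IEG-high and 1079 CPM in remaining Fcmr+/+ cells, and at 5181 and 1158 CPM in Fcmr-/- cells. Jun, its main partner, was at 1620 and 428 CPM in the Fcmr+/+ library and at 1284 and 273 CPM in the Fcmr-/- library. Fosb, a second FOS family subunit, was at 741 and 350 CPM and at 652 and 304 CPM. Ier2, an early response gene whose product acts in the nucleus, was at 235 and 88.4 CPM and at 197 and 64.9 CPM. Fos gave the most UMIs of the 5 genes in 88.1% of Fcmr+/+ and 93.4% of Fcmr-/- IEG-high cells, so the ranking leaned on it. On GRCm38 Fos lies at chr12:85473890-85477273 on the plus strand and Jun at chr4:95049034-95052222 on the minus strand. The values are molecules tagged at the 3′ end and are not scaled by transcript length.

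Egr1, a zinc finger factor induced through SRF, is part of the score, so its values too describe the choice. It stood at 812 CPM in IEG-high and 172 CPM in remaining Fcmr+/+ cells, against 565 and 61.3 CPM in Fcmr-/- cells. Its log2 ratio of IEG-high to remaining cells was 2.23 in the Fcmr+/+ library and 3.18 in the Fcmr-/- library, where its level among remaining cells was lower. At least 1 UMI of Egr1 was found in 73.6% of Fcmr+/+ and 56.6% of Fcmr-/- IEG-high cells. All 5 genes were detected in 51.2% of Fcmr+/+ and 36.2% of Fcmr-/- IEG-high cells. These detection shares are not matched for depth, and the Fcmr-/- cells were shallower.

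Each gene was also read in cells ranked on the other genes of the score, so that its own UMIs played no part in the choice. Fos was then 2.43-fold higher in the top cells of the Fcmr+/+ library and 3.14-fold higher in those of the Fcmr-/- library. Egr1 was 3.33-fold and 6.57-fold higher, Jun 2.42-fold and 2.96-fold, Ier2 2.44-fold and 2.66-fold, and Fosb 1.83-fold in both. Cells ranked high on the other genes of the score thus held more of each gene as a group. These are pooled levels that were not matched for depth, and they do not show that the genes were high together in every cell. Leaving out Fos kept 402 of the 718 cells (56.0%), whereas leaving out Ier2 kept 695 (96.8%). Without Fos the score placed 514 top cells in the Fcmr+/+ library and 204 in the Fcmr-/- library.

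Macrophage genes were read to set the label beside the data, on a list of 15. At least 10 of them had a UMI in 98.8% of Fcmr+/+ and 96.9% of Fcmr-/- IEG-high cells, against 99.2% and 98.5% of remaining cells. The part of free RNA in this detection was not tested. Their summed level was 31225 CPM in IEG-high and 31501 CPM in remaining Fcmr+/+ cells, and 31643 and 30237 CPM in Fcmr-/- cells. Csf1r, the receptor for the main macrophage growth factor, was at 359 and 315 CPM and at 353 and 285 CPM. Mertk, the receptor for apoptotic cells used in the sort, was at 67.7 and 62.6 CPM and at 58.7 and 48.5 CPM. Fcgr1, which encodes CD64, was at 262 and 250 CPM and at 423 and 394 CPM. Fcmr gave 0 UMIs in the IEG-high cells of either library, which allows up to 0.507 CPM in Fcmr+/+ and 1.06 CPM in Fcmr-/- cells (3 counts of the group's total), and among remaining cells it gave 7 UMIs in the Fcmr+/+ and 6 in the Fcmr-/- library. At this level its transcripts cannot check the genotype.

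Markers of other cell types were low in IEG-high cells, and the leading gene of each list is given for these cells. The 9 T and NK cell markers in the files summed to 2.53 CPM in IEG-high and 2.29 CPM in remaining Fcmr+/+ cells, and to 3.54 and 17.4 CPM in Fcmr-/- cells. Cd2 gave the most in IEG-high cells of both libraries, where Nkg7, Gzmb and Cd8a were at 0. The 4 B cell markers summed to 11.8 and 12.4 CPM and to 13.8 and 10.3 CPM, nearly all from Cd79b, and Ms4a1 was at 0 in Fcmr+/+ IEG-high cells. The 7 neutrophil markers summed to 33.3 and 31.8 CPM and to 61.9 and 48.3 CPM, led by Csf3r, with Ly6g and Retnlg at 0. The 9 dendritic cell markers summed to 6.59 and 9.11 CPM and to 7.78 and 15.1 CPM, led by Cd209a, with Clec9a at 0 in both libraries. The 10 fibroblast and endothelial markers summed to 12.2 and 7.08 CPM and to 21.9 and 12.5 CPM, led by Pecam1 in Fcmr+/+ and Kdr in Fcmr-/- cells, with Pdgfra and Cldn5 at 0. The 6 mast cell and basophil markers were all at 0 in IEG-high cells. The 8 melanoma markers summed to 100.1 and 77.1 CPM and at 125.6 and 107.9 CPM. They were led by Mitf, which macrophages also express, with Gpr143 at 0, while the pigment gene Pmel was at 22.6 and 14.4 CPM and at 31.8 and 24.7 CPM. The part of melanoma, fibroblast and endothelial RNA in the results was not tested.

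Genes were called higher or lower when their CPM differed at least 2-fold, on the scale of log2(CPM + 1), among genes with at least 20 CPM in IEG-high or remaining cells. The 5 genes of the score were left out. In the Fcmr+/+ library 45 of 5389 genes were higher in IEG-high cells (0.835%) and 14 were lower (0.26%). In the Fcmr-/- library 64 of 5486 were higher (1.17%) and 17 were lower (0.31%). Of 5239 genes at 20 CPM in both libraries, 29 were higher in both (0.554%) and none was lower in both. With depth-matched cells Hspa1b, Nr4a1, Jund, Id3, Rhov, Smad7, Ifit1, Ier5, Ier3, Hspb1, Ddit4 and Gm20186 fell below 2-fold in at least 1 library. Of the 29 genes, 16 belonged to 6 lists of early response genes, which were drawn up with earlier results of these data known. The lists hold 78 genes, of which 67 passed the filter in the Fcmr+/+ library and 65 in the Fcmr-/- library. On the lists 20 and 19 of them were called higher, and none lower. Over list genes with at least 5 CPM the median log2 ratio was 0.78 in the Fcmr+/+ library and 0.84 in the Fcmr-/- library, against -0.07 and -0.03 over all genes. Of all genes at this level, 3380 of 8720 were above 0 in the Fcmr+/+ and 4118 of 8784 in the Fcmr-/- library, beside which counts of list genes above 0 are to be read. With depth-matched remaining cells the list medians were 0.58 and 0.54.

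**Figure D2:**
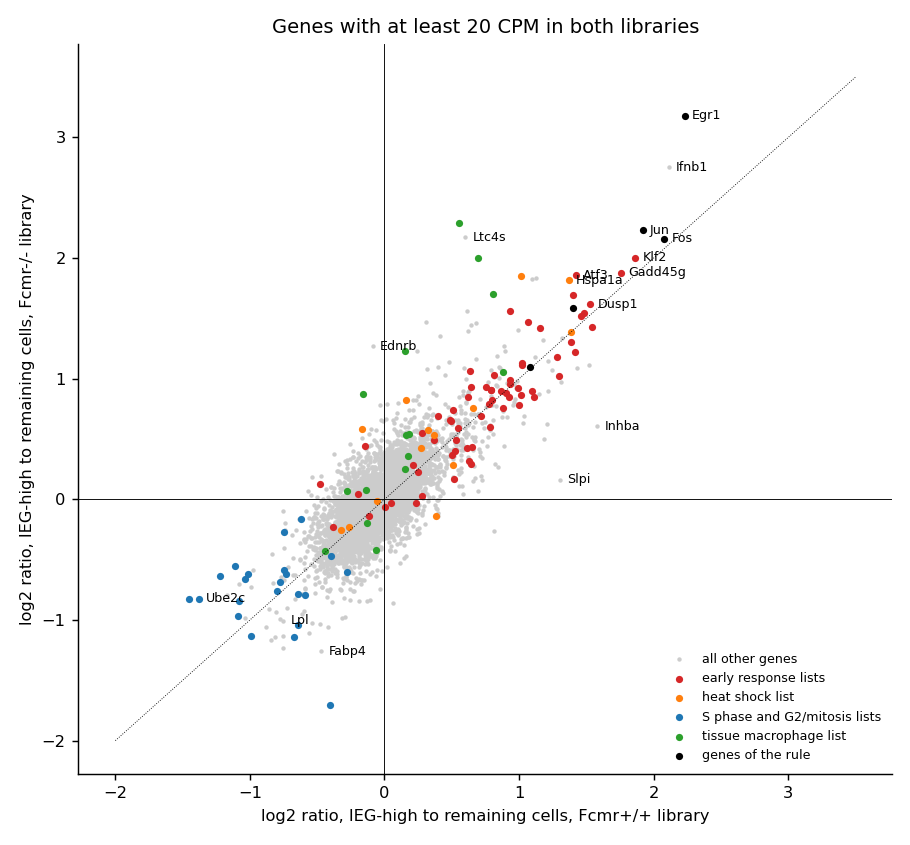
Log2 ratio of IEG-high to remaining cells for each gene with at least 20 CPM in both libraries, Fcmr+/+ on the x axis and Fcmr-/- on the y axis, with the dotted line marking equal ratios. Early response genes lie up and to the right with the genes of the score, S phase and mitosis genes lie down and to the left, and several tissue macrophage genes, such as those at a ratio of 2.29 (Lyve1) and 2.00 (Cd163) in the Fcmr-/- library, lie above the line.

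Among early transcription factors, Klf2, a zinc finger factor that restrains inflammatory genes in myeloid cells, had the highest weaker ratio of the 2 libraries among genes outside the score with at least 50 CPM in both. It stood at 880.0 CPM (95% interval 856 to 904) in IEG-high and 241 CPM in remaining Fcmr+/+ cells, and at 670.2 CPM (95% interval 640.4 to 701) and 166 CPM in Fcmr-/- cells. The gene lies at chr8:72319033-72321656 on the plus strand. The log2 ratios were 1.86 and 2.00, and 1.70 and 1.95 with depth-matched cells. Klf6, a related factor, was at 1531 and 685 CPM and at 1404 and 523 CPM. Nr4a1, an orphan nuclear receptor and a classic early gene, was at 569 and 280 CPM and at 471 and 214 CPM, ratios of 1.02 and 1.13 that were 0.97 in both with depth-matched cells. Id3, an inhibitor of helix-loop-helix factors, was at 171 and 81.1 CPM and at 129 and 45.8 CPM, and its Fcmr+/+ ratio of 1.07 was 0.98 with depth-matched cells. In the list of EGR, NR4A, KLF and other early factors, 18 of 19 genes were above 0 in the Fcmr+/+ library, with a median of 0.65, and 17 of 19 in the Fcmr-/- library, with a median of 0.85. Nab1, a corepressor of EGR factors, was at 59.6 and 64.8 CPM and at 55.5 and 61.3 CPM and lay on the other side of 0 in both.

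AP-1 partners did not all stand equally high. Atf3, a stress-induced factor that pairs with JUN, was at 1185 and 442 CPM in the Fcmr+/+ library and at 1269 and 349 CPM in the Fcmr-/- library, log2 ratios of 1.42 and 1.86. Jund was at 666 and 327 CPM and at 532 and 245 CPM, ratios of 1.02 and 1.12 that were 0.89 and 0.96 with depth-matched cells. Junb stood at 2213 and 1182 CPM and at 1990 and 1078 CPM. Fosl2, a FOS family member with slower kinetics, was at 208 and 175 CPM and at 186 and 159 CPM, ratios of 0.25 and 0.22 that were 0.05 and -0.04 with depth-matched cells. The median over the list was 0.78 and 0.84, and 0.57 in both libraries with depth-matched cells.

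Among genes that end the response, 1 of 6 MAP kinase feedback genes was called higher in the Fcmr+/+ library and 2 of 6 in the Fcmr-/- library. Of the mRNA decay list 1 of 8 was called in each, and of the NF-kB feedback list 0 of 8 and 1 of 8, where 0.835% and 1.17% of all genes were called. Dusp1, a phosphatase that switches off MAP kinases, was at 3559 CPM (95% interval 3511 to 3607) in IEG-high and 1232 CPM in remaining Fcmr+/+ cells, and at 3836 CPM (95% interval 3765 to 3909) and 1250 CPM in Fcmr-/- cells. Its log2 ratios were 1.53 and 1.62. Other inhibitors of MAP kinase signaling were less uniform. Dusp2 was at 340 and 206 CPM and at 263 and 163 CPM, while Spred1, which holds back RAF, was at 71.9 and 82.5 CPM and at 81.0 and 78.4 CPM. The median of the MAP kinase feedback list was 0.64 in the Fcmr+/+ and 0.37 in the Fcmr-/- library, and 0.51 and 0.06 with depth-matched cells. Zfp36, which encodes tristetraprolin and speeds decay of cytokine and early gene mRNAs, was at 1874 and 681 CPM and at 2118 and 738 CPM. All 8 genes of the list of mRNA decay and antiproliferative factors were above 0 in the Fcmr+/+ library and 7 of 8 in the Fcmr-/- library, with medians of 0.71 and 0.63. The NF-kB feedback list had medians of 0.63 and 0.62. Tnfaip3, an editor of ubiquitin chains, was at 529.9 and 304 CPM and at 431 and 243 CPM, and Nfkbia, the NF-kB inhibitor, at 2479 and 1618 CPM and at 1882 and 1400 CPM.

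Other early response genes had the largest medians of the 6 early response lists, 0.97 and 0.91, with 20 of 20 genes above 0 in each library. Gadd45g, a stress sensor upstream of p38, was at 118 and 34.3 CPM and at 95.1 and 25.2 CPM. Ppp1r15a, which restores translation by directing dephosphorylation of eIF2, was at 320.2 and 109 CPM and at 195 and 71.7 CPM. Rgs1, a damper of G protein signaling from chemokine receptors, was at 1341 and 479 CPM and at 1625 and 556 CPM. Plk2 and Rhob followed the same order, Plk2 at 465 and 176 CPM and at 382 and 117 CPM, and Rhob at 493 and 184 CPM and at 323 and 138 CPM. The kinases and factors that lie upstream of the response, including Srf, Elk4 and Creb1, had medians of 0.02 and 0.01, with 9 of 17 genes above 0 in each library. None of the 14 and 13 of them at 20 CPM was called, which is near the share over all genes.

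Promoter sequences were set beside the genes called higher in both libraries and the genes of the score. RefSeq promoters on GRCm38.p6, from 250 bases before to 50 bases after the annotated start, were matched by symbol for 24 of the 29 genes higher in both libraries and for 3 of the 5 genes of the score. The cyclic AMP response element, which CREB and ATF proteins bind, was searched as TGACGT on both strands and in its full palindromic form TGACGTCA, which contains the shorter word. TGACGT was found in 5 of the 24 promoters (20.8%), those of Rgs2, Atf3, Ppp1r15a, Plk2 and Dusp1, against 15.5% of promoters of the 4092 expressed genes matched and 7.51% of all 32851 promoters. The full TGACGTCA was found in 3 of 24 (12.5%) against 4.08% of expressed genes and 1.79% of all promoters. The CArG box bound by SRF was found in 1 of 24, Zfp36, against 1.78% of expressed genes and 1.63% of all promoters. TGANTCA, the AP-1 site, was found in 0 of 24 against 6.5% of expressed genes. The NF-kB site was found in 6 of 24 (25%) against 12.2% of expressed genes. TATAAA was found in 3 of 24 (12.5%) against 8.92%, GGGCGG, the word of SP factors, in 18 of 24 (75%) against 71.8%, and CCAAT in 10 of 24 (41.7%) against 42.8%. These are matches of letters in a short window and not bound sites. The stretches of 120 bases that hold these words are printed here to show where they lie, 5′ to 3′ on the strand of the gene and ending before the annotated start. Capitals mark TGACGT or its reverse complement, TGACGTCA, the CArG box and, in Fos, the TATA word TATAAA.
Fos, chr12:85473770-85473889, plus strand: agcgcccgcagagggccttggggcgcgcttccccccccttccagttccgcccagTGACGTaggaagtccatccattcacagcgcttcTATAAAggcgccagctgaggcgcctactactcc
Dusp1, chr17:26508576-26508695, minus strand: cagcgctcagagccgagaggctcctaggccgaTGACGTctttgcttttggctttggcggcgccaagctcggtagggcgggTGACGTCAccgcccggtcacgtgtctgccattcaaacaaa
Plk2, chr13:110394924-110395043, plus strand: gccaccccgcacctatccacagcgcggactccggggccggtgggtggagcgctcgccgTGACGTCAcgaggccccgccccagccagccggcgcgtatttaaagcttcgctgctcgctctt
Ppp1r15a, chr7:45526269-45526388, minus strand: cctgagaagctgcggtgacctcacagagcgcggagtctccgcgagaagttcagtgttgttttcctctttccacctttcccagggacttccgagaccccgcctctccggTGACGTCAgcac
Atf3, chr1:191183334-191183453, minus strand: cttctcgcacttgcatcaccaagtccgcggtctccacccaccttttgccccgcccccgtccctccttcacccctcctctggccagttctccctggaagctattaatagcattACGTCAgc
Rgs2, chr1:144004273-144004392, minus strand: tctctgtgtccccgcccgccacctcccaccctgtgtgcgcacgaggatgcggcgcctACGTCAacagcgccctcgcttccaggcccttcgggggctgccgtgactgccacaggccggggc
Zfp36, chr7:28379229-28379348, minus strand: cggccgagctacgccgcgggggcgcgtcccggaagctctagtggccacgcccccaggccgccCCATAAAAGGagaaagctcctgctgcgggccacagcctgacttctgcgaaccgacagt
In Fos the TGACGT word starts 66 bases and the TATA word 33 bases before the annotated start. The full palindrome starts 143 bases before the start in Dusp1, 62 in Plk2 and 12 in Ppp1r15a, and the CArG box 58 bases before it in Zfp36.

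Of 14 heat shock and chaperone genes, 3 were called higher in each library, where 0.835% and 1.17% of all genes were. Hspa1a, which encodes the stress-inducible HSP70, was at 624 and 241 CPM in the Fcmr+/+ library and at 911 and 258 CPM in the Fcmr-/- library. Its log2 ratios were 1.37 and 1.81. Hspa1b, a near-identical copy with which reads can be confused, was at 211 and 104 CPM and at 469.7 and 129.6 CPM, and the split between the copies is uncertain. Hspb1, a small heat shock protein, was at 49.3 and 18.2 CPM and at 56.2 and 20.8 CPM, but 5 cells held 96.2% of its UMIs in the Fcmr-/- IEG-high cells. With depth-matched cells the Fcmr+/+ ratio was 1.02 for Hspa1a, but 0.76 for Hspa1b and 0.71 for Hspb1, which no longer reached 2-fold. Hspa8, the constitutive HSP70, was at 2045 and 1692 CPM and at 2402 and 1788 CPM, below a 2-fold difference. Hsp90ab1 was at 1237 and 1285 CPM and at 1380 and 1393 CPM, and Hspd1 at 132 and 166 CPM and at 158 and 189.7 CPM. The list had medians of 0.35 and 0.56, with 10 of 14 genes above 0 in each library.

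Of the inflammatory genes, the chemokines Ccl3 and Ccl4, which attract leukocytes, were called higher in both libraries. Ccl4 was at 2785 and 1114 CPM and at 2637 and 1043 CPM, and Ccl3 at 967 and 416 CPM and at 968 and 436 CPM. Tnf was at 486 and 248 CPM and at 236 and 132 CPM. Cxcl2, a neutrophil chemoattractant, was at 6767 and 3314 CPM in the Fcmr+/+ library, a log2 ratio of 1.03, and at 5296 and 3413 CPM in the Fcmr-/- library, a ratio of 0.63. Il1b, in contrast, was at 1866 and 1634 CPM and at 1900 and 1954 CPM. Across the list 17 of 19 genes were above 0 in the Fcmr+/+ library, with a median of 0.39, and 14 of 19 in the Fcmr-/- library, with a median of 0.21. Over all genes 3380 of 8720 and 4118 of 8784 were above 0. Of 18 list genes at 20 CPM, 3 and 2 were called higher, where 0.835% and 1.17% of all genes were.

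Ifnb1, which encodes interferon beta, was singled out after its values were seen. It was at 41.4 and 8.80 CPM in the Fcmr+/+ library and at 28.6 and 3.40 CPM in the Fcmr-/- library. Its log2 ratios of 2.11 and 2.75 were 1.57 and 1.77 with depth-matched cells. These values rested on few cells. A UMI of Ifnb1 was found in 23 Fcmr+/+ IEG-high cells (5.4%), of which 5 held 66.1% of its UMIs, and in 5 Fcmr-/- IEG-high cells (1.7%). Genes of the type I interferon response had median ratios of 0.43 and 0.44, among them Ifit1, an antiviral RNA-binding protein, at 168 and 70.2 CPM and at 139 and 65.7 CPM, but 0.13 and 0.12 with depth-matched cells. The ratios of Ifit1, 1.25 and 1.07, were then 0.73 and 0.41. Of its UMIs in IEG-high cells, 5 cells held 32.6% in the Fcmr+/+ and 49.6% in the Fcmr-/- library. A UMI of Ifit1 was found in 25.2% of IEG-high against 19.8% of remaining Fcmr+/+ cells, and in 23.4% against 23.8% of Fcmr-/- cells. Genes of the type II response had medians of 0.16 and -0.08, which turned to -0.02 and 0.02 with depth-matched cells. Cxcl9, a T cell attractant induced by interferon gamma, was at 4.56 and 14.96 CPM in the Fcmr+/+ and at 79.2 and 188 CPM in the Fcmr-/- library, but 5 cells held 85.2% and 70.5% of its UMIs in IEG-high cells.

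**Figure D3:**
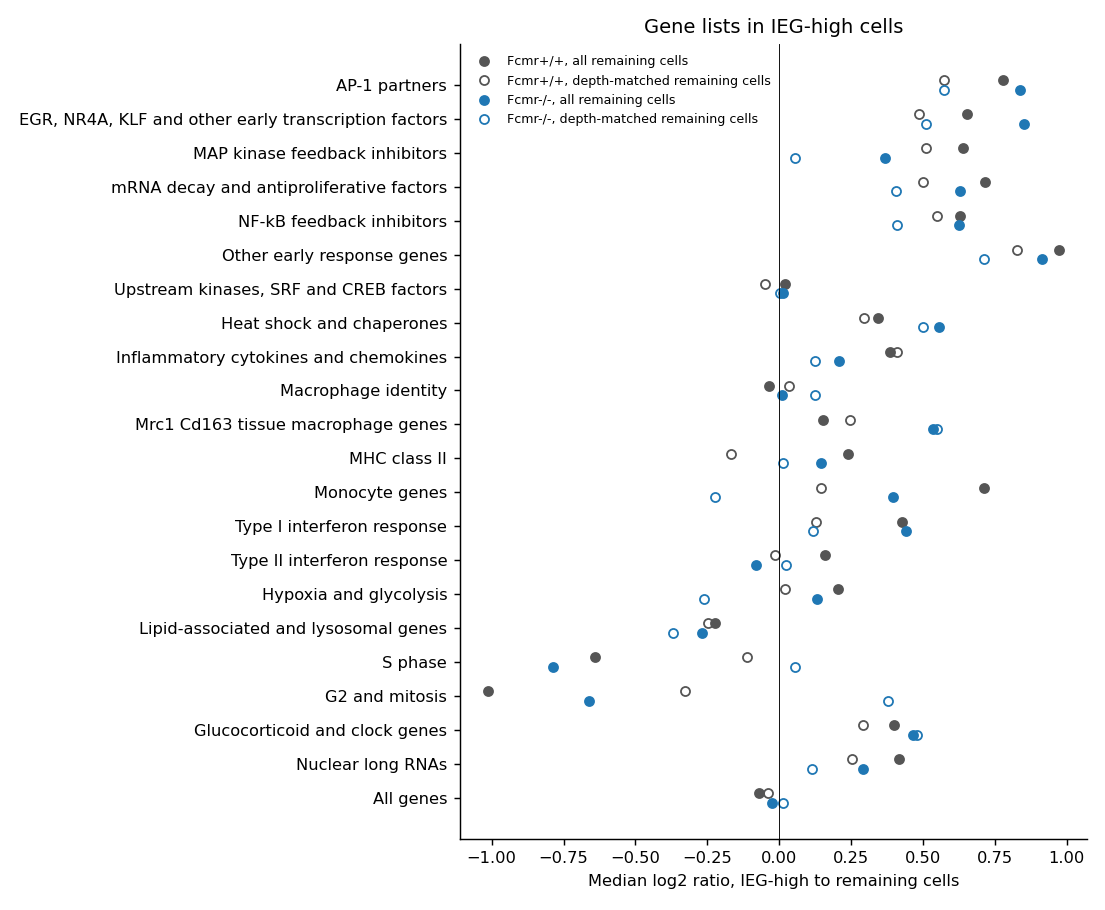
Median log2 ratio of IEG-high to remaining cells over the genes of each list with at least 5 CPM, for the Fcmr+/+ library (gray) and the Fcmr-/- library (blue), against all remaining cells (filled) and depth-matched remaining cells (open). The 6 early response lists at the top stay above 0 with either reference, while the S phase and mitosis medians move toward or past 0 when depth is matched.

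Some genes of lipid handling and lysosomes had negative ratios, few of them 2-fold. Lpl, Cd36, Atp6v0d2, Ctsk and Prdx1 were taken from the genes with the lowest ratios in both libraries. Their negative ratios against all remaining cells therefore follow from that choice. Genes picked by the same rule also include cell cycle genes, such as Ube2c and Birc5. Of 16 lipid-associated and lysosomal genes, 0 were called lower in the Fcmr+/+ library and 1 in the Fcmr-/- library, where 0.26% and 0.31% of all genes were. Lpl, which releases fatty acids from lipoproteins, was at 570.0 and 961 CPM in the Fcmr+/+ library and at 556 and 1119 CPM in the Fcmr-/- library. Its log2 ratios were -0.75 and -1.01, and -0.49 and -0.81 with depth-matched cells. Cd36, a fatty acid and lipoprotein receptor, was at 340.5 and 504 CPM and at 349 and 542 CPM. Atp6v0d2, a subunit of the proton pump of lysosomes, was at 94.7 and 160.3 CPM and at 49.9 and 118 CPM, and the lysosomal protease gene Ctsk at 48.8 and 104 CPM and at 54.5 and 89.0 CPM. Prdx1, an antioxidant enzyme, was at 1683 and 2535 CPM and at 1471 and 2451 CPM. All 5 of these kept a negative ratio with depth-matched cells in both libraries. Of these 5 genes only Lpl is on the list of 16. The ratios of Ctsk were -1.08 and -0.70, and -0.82 and -1.11 with depth-matched cells, so it was no longer 2-fold lower in Fcmr+/+. Atp6v0d2 had ratios of -0.75 and -1.23, and -0.57 and -1.09 with depth-matched cells. The list of lipid-associated and lysosomal genes had medians of -0.22 and -0.27, and -0.25 and -0.37 with depth-matched cells. In it 13 of 16 genes were at or below 0 in the Fcmr+/+ library and 14 of 16 in the Fcmr-/- library. Most genes of any kind were too: only 3380 of all 8720 genes were above 0 in the Fcmr+/+ and 4118 of 8784 in the Fcmr-/- library.

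Of 11 G2 and mitosis genes at 20 CPM, 7 were called lower in the Fcmr+/+ library and 1 in the Fcmr-/- library, and of 11 S phase genes 1 and 3, where 0.26% and 0.31% of all genes were. Their ratios moved with depth. Ube2c, which drives exit from mitosis, was at 26.5 and 70.6 CPM and at 33.6 and 60.3 CPM, log2 ratios of -1.38 and -0.82. With depth-matched cells these became -0.60 and 0.37. Mki67, a marker of cycling cells, was at 54.0 and 83.6 CPM and at 58.0 and 65.0 CPM, and its ratios of -0.62 and -0.16 became 0.05 and 0.85. The G2 and mitosis list had medians of -1.01 and -0.66 against all remaining cells and of -0.33 and 0.38 against depth-matched ones, so its direction in the Fcmr-/- library depended on the reference. For S phase the medians were -0.64 and -0.79, and -0.11 and 0.05 with depth-matched cells. None of the 14 genes called lower in the Fcmr+/+ library and 4 of the 17 in the Fcmr-/- library were still called against depth-matched cells, whereas 25 of 45 and 42 of 64 genes called higher were.

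Some other lists had medians that moved with depth. Monocyte genes had medians of 0.71 and 0.40, and 0.14 and -0.22 with depth-matched cells. Ccr2, the receptor that brings monocytes into tissue, was at 219.9 and 127 CPM and at 278 and 132 CPM, and its Fcmr-/- ratio of 1.08 was 0.68 with depth-matched cells. MHC class II genes had medians of 0.24 and 0.15, and -0.17 and 0.01 with depth-matched cells. The hypoxia and glycolysis list had medians of 0.21 and 0.13, and 0.02 and -0.26 with depth-matched cells. Glucocorticoid and clock genes stood at 0.40 and 0.46, and at 0.29 and 0.48 with depth-matched cells. Among them was Tsc22d3, which encodes the glucocorticoid-induced protein GILZ, at 408 and 226 CPM and at 335 and 157 CPM. Its Fcmr-/- ratio of 1.09 was 0.71 with depth-matched cells. Nuclear long RNAs had medians of 0.42 and 0.29, and 0.25 and 0.12 with depth-matched cells. Malat1, which stays in the nucleus, was at 14346 and 9920 CPM and at 17690 and 12322 CPM. Cytosolic ribosomal protein genes took 12.9% against 13.5% of UMIs in the Fcmr+/+ library and 11.98% against 13.5% in the Fcmr-/- library. The part of RNA quality and of the heated digestion in the results was not tested.

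Levels were also read along the whole range of the score. Pooled cells were divided into 20 bins of the score, of which the highest is the IEG-high cells. Dusp1 was at 435 CPM in the lowest bin, 1136 in bin 10, 2382 in bin 19 and 3559 in the highest in the Fcmr+/+ library, and at 496, 1194, 2563 and 3836 CPM in the Fcmr-/- library. Klf2 was at 105, 220.5, 469 and 880.0 CPM and at 78.5, 156, 380.4 and 670.2 CPM. The 6 early response lists summed to 9205, 16372, 23749 and 32828 CPM and to 9729, 14710, 22340 and 29889 CPM. Between bin 19 and the highest the step as a fold was larger for Klf2 than for Junb, which was at 1832 and 2213 CPM and at 1634 and 1990 CPM. Lpl went the other way, from 1052 to 570.0 CPM between the lowest and highest bin in the Fcmr+/+ library and from 1139 to 556 CPM in the Fcmr-/- library. Because the bins are cut from the score that chose the cells, they describe levels along it and cannot show whether IEG-high cells form a group of their own. Depth also dropped at the top, from a median of 16575 to 11408 UMIs between bin 19 and the highest in the Fcmr+/+ library and from 10195 to 8611 in the Fcmr-/- library.

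**Figure D4:**
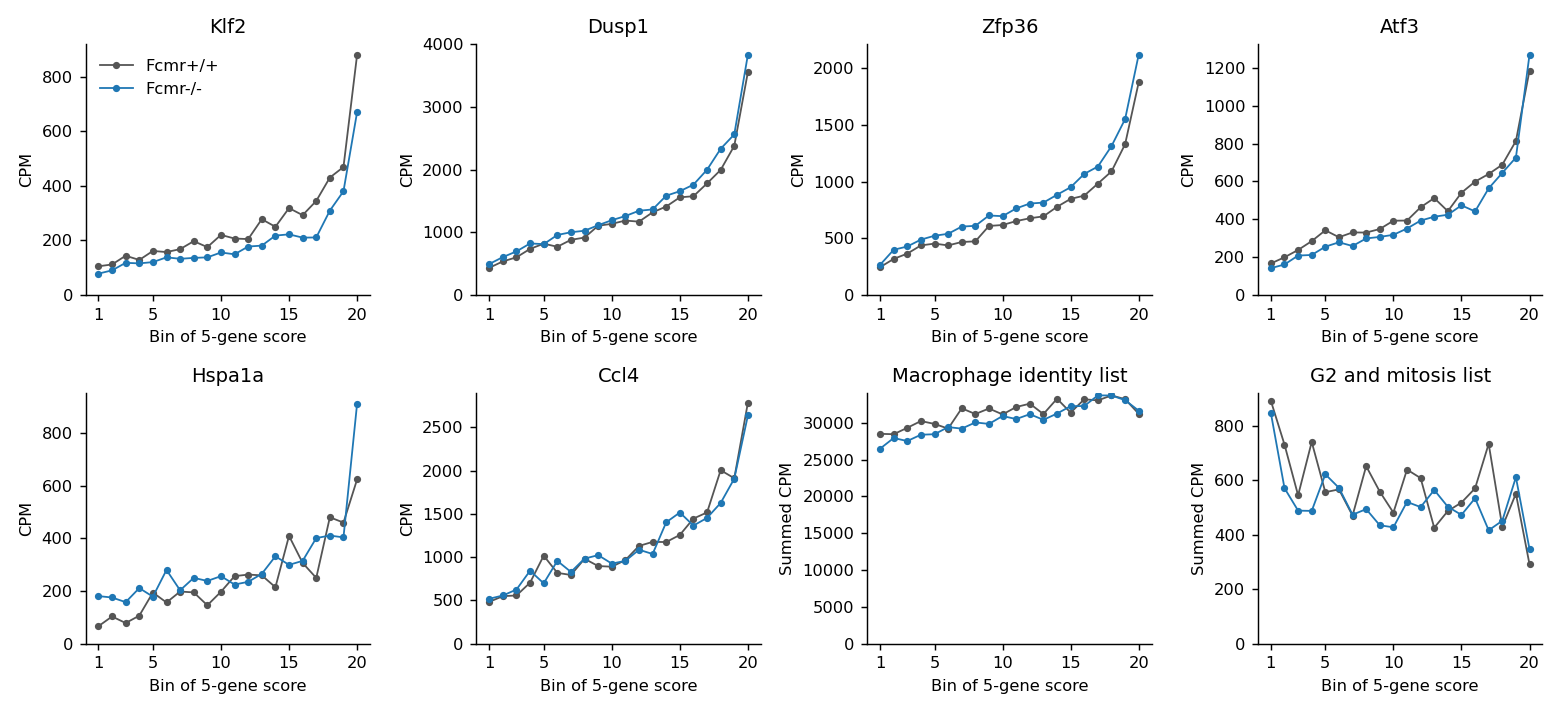
Level (CPM, or summed CPM of a list) in each of 20 bins of pooled cells ordered by the 5-gene score, where the highest bin is the IEG-high cells, for the Fcmr+/+ (gray) and Fcmr-/- (blue) library. Klf2, Dusp1, Zfp36, Atf3, Hspa1a and Ccl4 climb with the score, to 880.0 and 670.2 CPM for Klf2, while the macrophage list ends at 31225 and 31643 CPM and the mitosis list is lowest in the highest bin.

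Overlap with cells high for other genes was counted for sets of genes picked with their values known, so its size is in part set by that choice. Of Fcmr+/+ IEG-high cells, 51.6% (95% interval 46.8 to 56.5) were also in the top 5% of pooled cells by the summed share of Dusp1, Klf2 and Zfp36, against 2.5% of remaining cells. In the Fcmr-/- library this held for 49.0% (95% interval 43.1 to 54.9) against 2.69%. For Ccl3 and Ccl4 the shares were 18.0% against 4.29% and 16.6% against 4.40%, and for Hspa1a and Hspa1b 12.4% against 4.17% and 17.6% against 4.76%. For Il1b and Cxcl2 they were 10.3% against 3.73% in the Fcmr+/+ library and 6.21% against 5.64% in the Fcmr-/- library. None of these shares was matched for depth, and IEG-high cells were shallower than remaining cells. The part of depth in the overlap was not tested.

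Several genes had a larger ratio in the Fcmr-/- than in the Fcmr+/+ library. Cbr2, a carbonyl reductase typical of resident macrophages, was at 231 CPM in IEG-high and 208 CPM in remaining Fcmr+/+ cells, but at 276 and 117 CPM in Fcmr-/- cells. Folr2, a folate receptor of perivascular and resident macrophages, was at 218 and 244 CPM and at 297 and 162 CPM. Pltp, a phospholipid transfer protein, was at 204 and 172 CPM and at 285 and 121 CPM. Ednrb, an endothelin receptor, was at 102 and 108 CPM and at 102 and 41.8 CPM. Ltc4s, which makes leukotriene C4, was at 56.6 and 37.0 CPM and at 98.0 and 21.0 CPM, log2 ratios of 0.60 and 2.17 that differ by 1.57 (95% counting interval 1.33 to 1.81). These 5 genes had the largest excess of the Fcmr-/- over the Fcmr+/+ ratio among genes at 50 CPM in both libraries, as the naming rule asked. With depth-matched cells the Fcmr+/+ ratios of Folr2 and Ednrb turned from -0.16 to 0.07 and from -0.09 to 0.26. The log2 ratio of Fcmr-/- to Fcmr+/+ was 0.26 among IEG-high and -0.82 among remaining cells for Cbr2, and 0.01 and -1.35 for Ednrb. It was 0.44 and -0.59 for Folr2, 0.48 and -0.50 for Pltp, and 0.78 and -0.79 for Ltc4s. All 5 genes were thus lower in Fcmr-/- among remaining cells, but not among IEG-high cells.

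On the wider list of Mrc1 Cd163 tissue macrophage genes, 0 of 15 genes were called higher in IEG-high cells of the Fcmr+/+ library, where 0.835% of all genes were, with a median of 0.15. In the Fcmr-/- library 5 of 15 were, against 1.17% of all genes, with a median of 0.54, and depth-matched cells gave 0.25 and 0.55. Among these were Lyve1, a hyaluronan receptor, Cd163, the hemoglobin scavenger receptor, Cx3cr1, the fractalkine receptor, and Cbr2. Lyve1 was at 36.8 and 24.8 CPM in the Fcmr+/+ and at 83.8 and 16.3 CPM in the Fcmr-/- library. Cd163 was at 42.2 and 25.7 CPM and at 37.8 and 8.69 CPM. Some of these values rested on few cells: in Fcmr-/- IEG-high cells, 5 cells held 64.5% of the UMIs of Cd163, 71.0% of those of Cx3cr1 and 46.8% of those of Lyve1, against 18.6% for Cbr2. Mrc1, the mannose receptor, was more even, at 828 and 911 CPM and at 661 and 626 CPM, so the list did not move as one. Of Fcmr-/- IEG-high cells, 9.66% (95% interval 6.51 to 13.7) were in the top 5% by summed Mrc1, Cd163 and Folr2, against 2.81% of remaining cells, while the shares were 7.94% and 7.41% in the Fcmr+/+ library. These shares were not matched for depth. Whether the difference between the libraries exceeds the spread between mice was not tested.

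**Figure D5:**
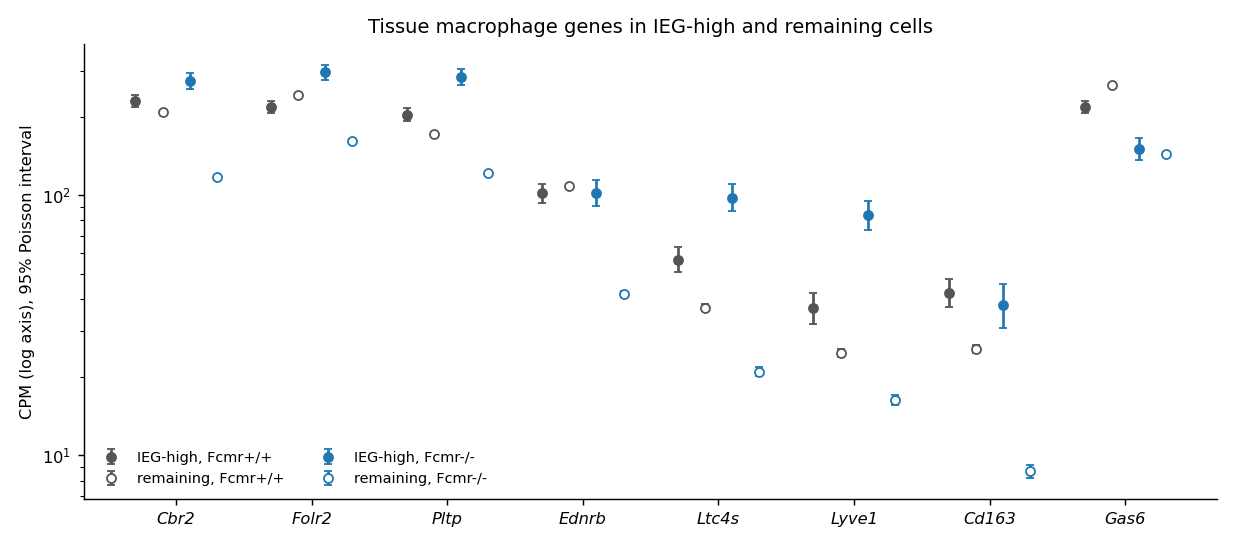
Level of 8 genes (CPM, log axis) in IEG-high cells (filled) and remaining cells (open) of the Fcmr+/+ (gray) and Fcmr-/- (blue) library. Bars are exact 95% Poisson intervals that cover counting error only. Cbr2, Folr2, Pltp, Ednrb and Ltc4s were picked for their larger ratio in the Fcmr-/- library. Lyve1, Cd163 and Gas6 were picked from the tissue macrophage list, on which Pltp, Ednrb and Ltc4s do not stand. Other list genes, such as the more even Mrc1, are not shown. For Ednrb the IEG-high cells of both libraries sit at 102 CPM, with remaining cells at 108 CPM in Fcmr+/+ and 41.8 CPM in Fcmr-/-.

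The opposite pattern was seen in 5 genes whose ratio was larger in the Fcmr+/+ library. Slpi, a secreted protease inhibitor, was at 136 and 54.5 CPM in the Fcmr+/+ and at 79.9 and 71.4 CPM in the Fcmr-/- library, and 5 cells held 44.2% of its UMIs in Fcmr+/+ IEG-high cells. Inhba, which encodes the activin A subunit, was at 73.6 and 23.9 CPM and at 136 and 88.9 CPM. Ly6a, an interferon-responsive surface protein, was at 72.1 and 40.6 CPM and at 389 and 468 CPM. Fabp4, a fatty acid carrier, was at 388 and 537 CPM and at 174 and 417 CPM, and Cxcl10, an interferon-induced chemokine, at 327 and 143 CPM and at 385 and 273 CPM. With depth-matched cells the ratio of Slpi was 0.52 in place of 1.31 in the Fcmr+/+ library and -0.65 in place of 0.16 in the Fcmr-/- library. That of Ly6a was 0.34 in place of 0.81 in the Fcmr+/+ library, and that of Cxcl10 0.95 in place of 1.19. The ratio of Inhba was 0.87 in place of 1.58 in the Fcmr+/+ library and -0.25 in place of 0.61 in the Fcmr-/- library.

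Levels were also compared between the libraries within IEG-high and within remaining cells. On the type II interferon list all 17 genes were higher in Fcmr-/- cells, with a median log2 ratio of Fcmr-/- to Fcmr+/+ of 1.06 among IEG-high and 1.22 among remaining cells. On the type I list 22 of 23 genes were higher in both, with medians of 0.67 and 0.77. Of all 8964 genes, 5025 were higher in Fcmr-/- cells among IEG-high and 4483 among remaining cells. On the 6 early response lists the medians were -0.20 among IEG-high and -0.23 among remaining cells, against 0.04 and 0.00 over all genes. The rule sets IEG-high cells to like scores in both libraries, with a median of 7381 and 7282 UMIs per 1000000, so the level of early genes within them is in part fixed by the choice.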

How the data were processed

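The deposited values are counts: whole UMIs of each gene in each cell of 2 libraries, for which the authors ran Cell Ranger against GRCm38. Seurat 2.1.0 is named in the submitters' processing notes. The deposited tables list 27998 genes. The gene and barcode lists hold names and no measurement. Cells with 200 to 7000 genes and at most 30% mitochondrial UMIs were kept, as in the study. The members and the gene lists were chosen with earlier results of these data known.

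UMIs were summed over IEG-high or remaining cells of a library and divided by the group's total to give CPM, so the counts keep their depth: 5921425 UMIs in Fcmr+/+ and 2827330 in Fcmr-/- IEG-high cells. Log2 ratios used a pseudocount of 1 CPM. Calls needed 20 CPM and a 2-fold ratio, and list medians used genes with 5 CPM. Named genes were the 5 genes of the score, the 15 genes at each end of the weaker ratio of both libraries among genes with 50 CPM in both, the 5 with the largest difference between libraries in each direction, Fcmr, Mertk, Fcgr1 and list members. Depth matching weighted remaining cells to the IEG-high cells' UMIs over 10 depth bins within a library. No doublet caller was used here; the 5% of cells with the most UMIs were left out as an alternative. Intervals are exact at 95%, except that of the difference in a ratio between libraries, which uses a normal approximation to counting error. Promoters came from RefSeq and gene positions from GENCODE.

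Python 3.11.15, numpy 2.4.6, scipy 1.17.1 and pandas 2.3.3 were used. The calculation was tested on simulated data: of 200 genes changed in the Fcmr+/+ simulation, run on 5295 genes, 99% were recovered with 0 false calls, and likewise in the Fcmr-/- simulation on 5371 genes. The largest log2 error of a changed gene was 0.563 in the Fcmr+/+ and 1.24 in the Fcmr-/- simulation. All planted changes were larger than the limit for a call, and the simulated counts held no variation between cells. The simulation therefore checks the arithmetic and not how reliable the calls are. Alternatives covered the share of cells taken, the ranking, thinning, the genes of the score, splitting of UMIs, limits on cells, scaling, depth matching, pseudocount and filter.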

Additional observations from a re-analysis of the deposited data

Results flagged for a closer look

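For a set of named genes and list members, the log2 ratio of IEG-high to remaining cells was above 0 in one library and below 0 in the other, beyond counting error in each. The values below are the Fcmr-/- ratio minus the Fcmr+/+ ratio, and the difference was not tested, since each genotype has 1 library. The ratio was positive in the Fcmr-/- library for Folr2, with a difference of 1.03 (-0.16 in Fcmr+/+ and 0.87 in Fcmr-/-), for the kinase gene Mapk3, with 0.37 (-0.16 and 0.21), for Mrc1, with 0.22 (-0.14 and 0.08), and for the antiviral tether gene Bst2, with 0.15 (-0.07 and 0.08). It was positive in the Fcmr+/+ library for Ly6a, with a difference of -1.08 (0.81 and -0.26), for the endoplasmic reticulum chaperone gene Hspa5, with -0.52 (0.38 and -0.14), and for Il1a, with -0.49 (0.18 and -0.31). The same held for Il1b, with -0.23 (0.19 and -0.04), for Spp1, which encodes osteopontin, with -0.20 (0.05 and -0.15), for the glycolytic gene Gapdh, with -0.20 (0.10 and -0.10), and for the cytokine gene Mif, with -0.13 (0.06 and -0.07). With depth-matched remaining cells the sign in Fcmr+/+ turned for Folr2 (0.07), Mrc1 (0.08), Il1b (-0.15), Spp1 (-0.16), Gapdh (-0.03) and Mif (-0.14), so that both libraries then lay on the same side of 0.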

How the results depend on the processing

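No paired analysis was possible because each genotype has 1 library. The IEG-high share stayed higher in the Fcmr+/+ library under every alternative that pooled the libraries: 3.45% and 1.75% with the top 2.5% of cells, 13.2% and 7.48% with the top 10%, and 8.09% and 2.55% without Fos in the score. Ranking within each library sets both shares by construction, at 5.01% and 5%. Counts of genes are given as Fcmr+/+ and then Fcmr-/-. Genes higher numbered 45 and 64, against 99 and 142 with the top 2.5% and 18 and 38 with the top 10% of cells, and 70 and 144 with no filter on low values. They numbered 27 in Fcmr+/+ with depth-matched cells, 109 in Fcmr-/- without Fos and 103 in Fcmr-/- with a filter at 5 CPM. Genes lower numbered 14 and 17 and moved more: 43 and 83 with the top 2.5%, 2 and 3 with the top 10%, 0 and 55 without Fos, 1 and 9 with depth-matched cells, and 5 and 10 with stricter limits on cells. They were 6 and 7 with 5 CPM added, 43 and 62 with a filter at 5 CPM, 5 and 6 at 50 CPM, 66 and 141 with no filter, and 8 and 9 without the deepest 5% of cells. In Fcmr+/+ they were 6, 7 and 27 without Fosb, Jun and Egr1, and in Fcmr-/- they were 8 with ranking within each library, 30 with split UMIs and 10 with a mean over cells. Medians of lists changed sign for MHC class II in Fcmr+/+, to -0.31 without Fos and -0.17 with depth-matched cells, and for monocyte genes, to -0.19 in Fcmr+/+ without Fos and -0.22 in Fcmr-/- with depth-matched cells. In Fcmr-/- the G2 and mitosis median became 0.07 with stricter limits on cells and 0.38 with depth-matched cells, and the S phase median 0.05 with depth-matched cells. Medians nearer 0 crossed it too. In Fcmr-/- the lowest median over the alternatives was -0.32 for MHC class II and -0.26 for hypoxia and glycolysis. Type II interferon medians ranged from -0.02 to 0.36 in Fcmr+/+ and from -0.23 to 0.05 in Fcmr-/-. The ranges for macrophage identity and for upstream kinases and factors also spanned 0 in both libraries. The causes were not tested. Leaving out cells with shared barcodes or the deepest 5% of cells was chosen after seeing the data, and neither moved the share or the number of genes higher by over 1.5 times. The design has 1 library per genotype, so all intervals hold counting error alone.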
